A study of Mus musculus with 30 samples.

Results

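The 24-hour response of the mouse fetal testis to all-trans retinoic acid (ATRA) was read from 14 of the 30 RNA libraries of a culture series. The 14 are the 5 ATRA libraries and the 9 vehicle libraries with second title numbers from 416 to 457, in the same range as the ATRA libraries, at 431 to 462. Testes came from C57BL/6 fetuses at gestational day 14, were separated from the mesonephros and were cultured on inserts for 24 h. The ATRA cultures received 1 µM ATRA, and the vehicle cultures received DMSO at a dilution of 1 in 4000. The series also holds 6 libraries with the phthalate monoester MEHP (100 µM), 4 with both compounds and 6 further vehicle libraries with higher numbers, at 525 to 596. No genetic change is named in any group.

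Retinoic acid is made from vitamin A by retinol and retinal dehydrogenases and is cleared by the CYP26 family of cytochromes P450. It binds nuclear receptors (RARs) that sit on DNA with retinoid X receptors and switch nearby genes. In the fetal ovary it is linked to the entry of germ cells into meiosis, marked by Stra8, whereas in the fetal testis CYP26B1 from somatic cells keeps retinoic acid low and germ cells enter mitotic arrest.

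Markers of the cells of a fetal testis were present in both groups. The germ cell gene Ddx4 averaged 136 ± 15.8 CPM (counts scaled to the library total) in ATRA and 124 ± 20.5 CPM in vehicle libraries (SD, n = 5 and 9), and the Leydig gene Cyp11a1 averaged 648 ± 51.4 CPM in ATRA and 665 ± 58.9 CPM in vehicle libraries. The Y-linked gene Ddx3y lay between 59.3 and 71.8 CPM in ATRA libraries and between 62.3 and 75.6 CPM in vehicle libraries. Total counts were 18580209 to 26955598 in ATRA and 18338470 to 29306917 in vehicle libraries. With group means removed, the 14 libraries spread along a first axis that held 41% of the remaining variance. It was not tested which genes drove that axis. The lowest on it were vehicle library 7 (-19.6), ATRA library 1 (-14.1) and vehicle library 1 (-10.6), which share a first title number. The highest, vehicle library 8 (23.7) and ATRA library 3 (17.2), share another. ATRA library 2 (-0.8) and vehicle library 9 (4.4) carry the same first title number as the highest libraries but lay nearer the middle. Whether the first title number accounts for the axis was not tested. ATRA libraries 1 and 3 and vehicle libraries 7 and 8 lay at its ends, so each call of a gene in the set tried under other settings that was lost without those 4 is given with that value.

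**Figure D1:**
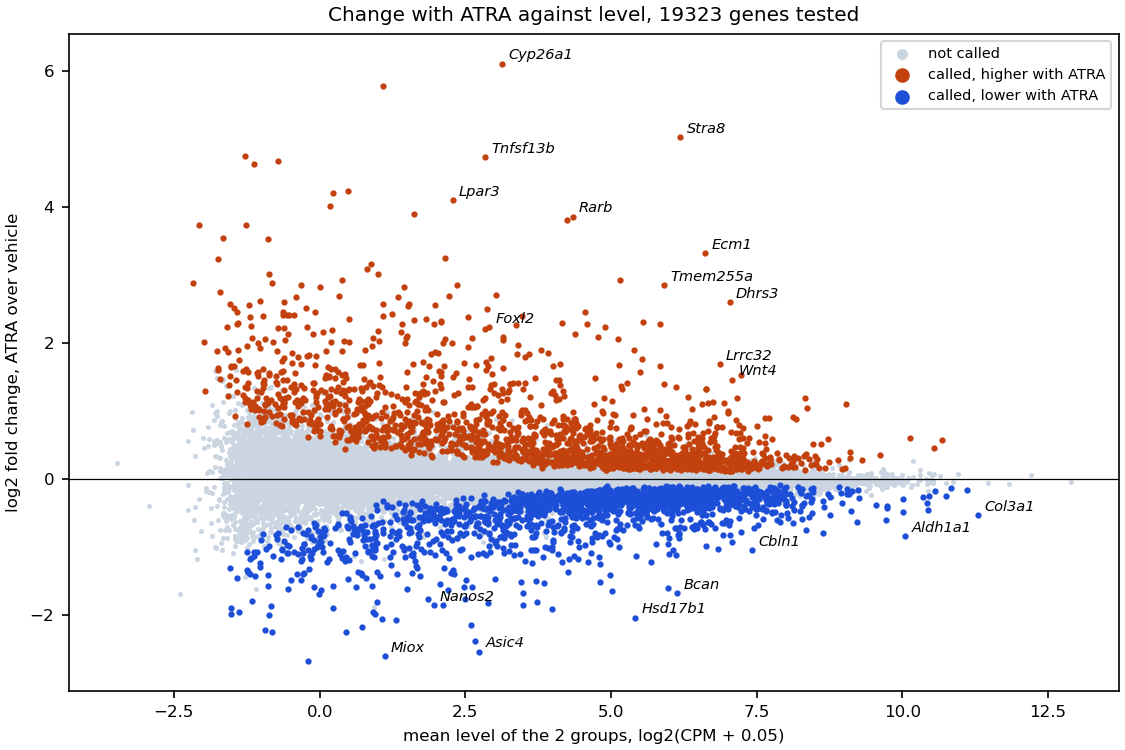
Each point is 1 gene. The x axis is the mean level of the groups as log2(CPM + 0.05) and the y axis the fitted log2 fold change, ATRA over vehicle. Orange points rose, blue points fell and grey points did not pass the test. Rises reach higher values than falls, with Cyp26a1 at 6.10 and Miox at -2.61.

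ATRA changed 3494 of 19323 genes tested (18.1%) at an adjusted p under 0.05, of which 1750 rose (9.06%) and 1744 fell (9.03%). The counts of list members given below are to be read against these shares. The largest changes were mostly rises. Of 629 genes that changed at least 2-fold (3.26%), 442 rose (2.29%) and 187 fell (0.968%), and at least 4-fold 113 rose and 13 fell. Of 3456 genes with a vehicle mean under 1 CPM, 310 rose and 48 fell. Genes this low in vehicle have little room to fall, and they can pass the expression filter through counts in another group. The split within this class is therefore partly set by how it was chosen. Of 2591 genes at 100 CPM or more, 168 rose and 329 fell, with 3 rises (Aard, Mest and Dcn) and 3 falls (Bcan, Mical2 and Cbln1) of at least 2-fold. Mest is named after its value was seen. In 1833 genes (9.49%) the groups did not overlap, with all 5 ATRA libraries above all 9 vehicle libraries in 956 (4.95%) and below them in 877 (4.54%). On the first principal component of the 14 libraries (47.1% of the variance), the ATRA libraries lay between 17.5 and 24.5 and the vehicle libraries between -13.7 and -8.64.

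Promoter sequence is shown for retinoid genes because retinoic acid receptors bind paired half-sites. The letters searched were the half-site AGGTCA and its variants, which read AGTTCA or alternatively GGGTCA or alternatively GGTTCA, paired in the same direction with 5, 2 or 1 bases between them, on both strands of a window from 250 bases before to 50 after the gene start (RefSeq, GRCm38.p6). A pair with 5 bases between occurred in 32 of 32851 windows (0.0974%) and in 9 of the 13281 tested genes that had a window (0.0678%). It occurred in 4 of 297 genes that rose at least 2-fold (1.35%), in 0.0373% of 10715 genes not called, and in 1 of 1273 that fell. The pairs below are given on the strand on which they read as direct repeats, with the half-sites in capitals; Syndig1 and Prokr2 are named outside the naming rule, because they complete the count.

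Cyp26a1: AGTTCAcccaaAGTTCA

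Rarb: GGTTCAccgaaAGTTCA

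Tnfsf13b: AGTTCAgatggAGTTCA

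Syndig1: GGGTCAcccctAGTTCA

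Prokr2: AGGTCAcaacgGGTTCA

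The pair of Cyp26a1 lies on the strand opposite to the gene, 32 to 16 bases before the start, and that of Rarb 53 to 37 bases before it. The first 4 genes rose and Prokr2 fell. Pairs with 2 or 1 bases between them were in 0 of the 297 genes that rose at least 2-fold, against 0.12% and 0.294% of genes tested. At shares this low, 0 of 297 says little. Of all 1293 genes with a window that rose, 2 held a pair with 2 bases between (0.155%) and 6 a pair with 1 (0.464%). The shares of genes not called were 0.131% and 0.289%. The windows of Dhrs3, Stra8, Lrat, Cyp26b1 and Hoxb1 hold none of the 3 kinds of pair. A match of letters is a description and not a binding site. The 250 bases before the starts of Rarb and Cyp26a1 follow, 5′ to 3′ on the gene's strand, with the half-sites in capitals. These promoters are shown because they belong to called retinoid genes whose windows hold a pair given above. The presence of a pair in them is therefore part of how they were chosen. Rarb is at chr14:16575477-16575726 on the minus strand and Cyp26a1 at chr19:37697558-37697807 on the plus strand, where its pair reads in reverse complement.

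Rarb: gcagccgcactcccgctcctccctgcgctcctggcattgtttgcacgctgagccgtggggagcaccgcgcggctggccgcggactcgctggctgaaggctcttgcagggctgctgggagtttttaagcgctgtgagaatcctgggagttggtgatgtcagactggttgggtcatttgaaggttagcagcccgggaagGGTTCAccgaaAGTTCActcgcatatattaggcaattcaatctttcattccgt

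Cyp26a1: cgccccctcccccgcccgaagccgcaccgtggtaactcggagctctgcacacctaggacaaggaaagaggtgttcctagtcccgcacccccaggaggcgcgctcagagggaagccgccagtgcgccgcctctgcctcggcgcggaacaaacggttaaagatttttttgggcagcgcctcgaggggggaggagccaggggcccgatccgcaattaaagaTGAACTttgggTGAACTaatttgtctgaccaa

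The CYP26 genes that clear retinoic acid and the retinal reductase gene Dhrs3 rose, and the synthesis genes Aldh1a1 and Aldh1a2 fell. Of 9 genes of clearance and retinal reduction tested, these 4 rose, 0 fell and 5 did not pass. Cyp26a1, a retinoic acid hydroxylase, stood at 5.58, 19.6, 25.7, 17.8 and 17.2 CPM in ATRA libraries 1 to 5, against 0.0454, 0.178 and 0.589 CPM (lowest, median and highest) in vehicle libraries. No ATRA library reached down to the vehicle range, and library 1 was the lowest of its group. The log2 fold change was 6.10 ± 0.31 (SE; adjusted p = 2.3e-15). Cyp26b1, the member known to protect male germ cells, stood at 226 to 281 CPM in ATRA and 89.7 to 180 CPM in vehicle libraries, a log2 fold change of 0.89 ± 0.14 (adjusted p = 1.4e-05). Per transcript length, over the genes tested, Cyp26b1 remained the most abundant CYP26 gene, at 161 ± 14.7 TPM (transcript abundance scaled by gene length) in ATRA and 85.3 ± 17.7 TPM in vehicle libraries, with Cyp26a1 at 32.2 ± 13.9 TPM in ATRA and 0.434 ± 0.344 TPM in vehicle libraries. Cyp26c1, the remaining hydroxylase of the family, averaged 4.06 ± 1.88 CPM in ATRA and 0.0711 ± 0.0594 CPM in vehicle libraries, and at least 1 vehicle library was at 0. Dhrs3, a retinal reductase, was the abundant gene of this set that moved most: it stood at 212, 217, 250, 228 and 221 CPM in ATRA libraries 1 to 5, against 33.5, 38.2 and 42.5 CPM (lowest, median and highest) in vehicle libraries, a log2 fold change of 2.59 ± 0.06 (adjusted p = 7.6e-24).

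Of 10 synthesis genes tested, 1 rose and 2 fell, against 9.06% and 9.03% over all genes tested. Aldh1a1, a retinal dehydrogenase, stood at 915, 740, 712, 734 and 700 CPM in ATRA libraries 1 to 5, against 1280 CPM or more in every vehicle library, a log2 fold change of -0.85 ± 0.09 (adjusted p = 6.9e-09). ATRA library 1 was the highest of its group, but the groups did not overlap. Aldh1a2, the related enzyme, fell by 0.40 on the log2 scale (SE 0.11, adjusted p = 0.0083), with overlapping groups. The small rise of Aldh1a3 (log2 fold change 0.44 ± 0.14, adjusted p = 0.029) was not called in 7 of 23 other settings, and without the 4 end libraries its adjusted p was 0.094. Per transcript length Aldh1a1 stood at 1225 TPM in ATRA and 2170 TPM in vehicle libraries, Aldh1a2 at 100.2 TPM in ATRA and 129.8 TPM in vehicle libraries, and Aldh1a3 at 7.73 TPM in ATRA and 5.61 TPM in vehicle libraries. The retinol dehydrogenase gene Rdh10 did not pass the test (log2 fold change -0.10 ± 0.06, adjusted p = 0.31). Adh5 and Rdh11 of the same list did not pass either (adjusted p = 0.16 and 0.14). Adh5 was called as a fall against all 15 vehicle libraries (adjusted p = 0.0298). Rdh11 was called as a fall in a fit of the 14 libraries alone (adjusted p = 0.0451).

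**Figure D2:**
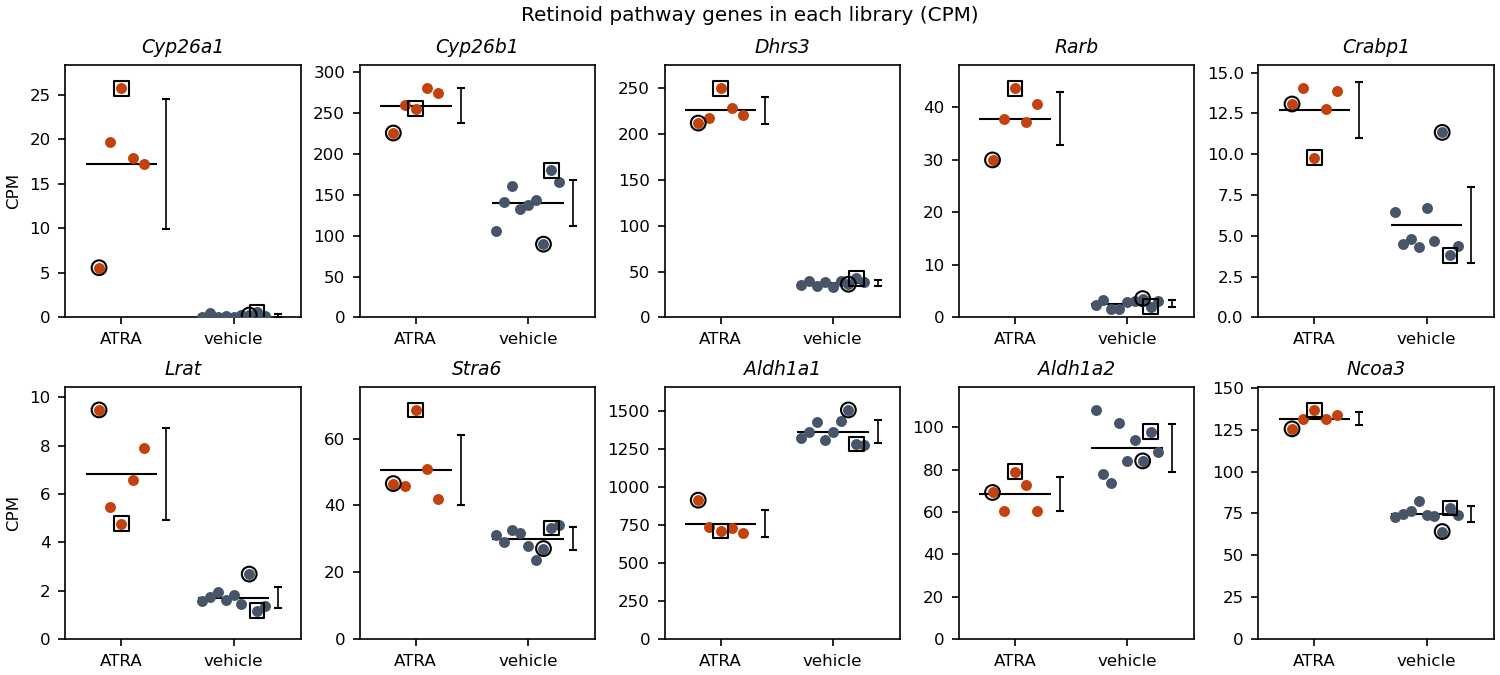
Each panel is 1 gene, the y axis is CPM, each point is 1 library, the lines are means and the bars SD (n = 5 ATRA, n = 9 vehicle). Circles mark ATRA library 1 and vehicle library 7, squares mark ATRA library 3 and vehicle library 8. Dhrs3 and Rarb separate the groups with no overlap, and Aldh1a1 is lower in all ATRA libraries.

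Of 9 genes for binding, uptake and storage of retinoids, 5 rose and 1 fell, with a median log2 fold change of 0.84, against -0.00018 over all genes tested. Lrat, which stores retinol as its ester, averaged 6.83 ± 1.89 CPM in ATRA and 1.71 ± 0.435 CPM in vehicle libraries (log2 fold change 2.00 ± 0.16, adjusted p = 6.3e-11). Crabp1, a retinoic acid carrier, rose by 1.17 ± 0.25 with overlapping groups, and Stra6, a retinol uptake receptor, by 0.75 ± 0.14 with none. Fabp5, another lipid carrier, fell by 0.24 on the log2 scale (SE 0.07, adjusted p = 0.016), a call lost without ATRA library 5 (adjusted p = 0.0501).

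Of 13 receptor and cofactor genes, 4 rose and 1 fell. Rarb, a retinoic acid receptor and a classic target of the receptors themselves, stood at 30.01, 37.8, 43.7, 37.3 and 40.7 CPM in ATRA libraries 1 to 5, against 1.64, 2.98 and 3.59 CPM (lowest, median and highest) in vehicle libraries (log2 fold change 3.85 ± 0.16, adjusted p = 1.3e-17). The coactivator Ncoa3 (0.82 ± 0.05) and the corepressor Nrip1 (0.25 ± 0.05) also rose. The receptor gene Rarg rose by 0.34 ± 0.09 (adjusted p = 0.0072), but was not called without the 4 end libraries (adjusted p = 0.0597). Rara fell by 0.26 on the log2 scale (SE 0.08, adjusted p = 0.021), a call lost without ATRA library 1 (adjusted p = 0.051) and without the 4 end libraries (adjusted p = 0.0712). The 3 RXR genes did not pass the test, with log2 fold changes of -0.11 ± 0.06 for Rxra, 0.04 ± 0.06 for Rxrb and -0.43 ± 0.31 for Rxrg.

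Most genes of meiotic entry rose, while 2 of 18 general germ cell genes were called, against 18.1% of all genes tested. Of 8 meiotic entry genes tested, 7 rose and 0 fell, with a median log2 fold change of 1.33. Stra8, the retinoic acid responsive gate of meiosis, stood at 56.5, 168, 205, 144 and 135 CPM in ATRA libraries 1 to 5, against 1.24, 3.85 and 9.04 CPM (lowest, median and highest) in vehicle libraries. Library 1 was the lowest ATRA library and was still above the highest vehicle library. The log2 fold change was 5.03 ± 0.32 (adjusted p = 3.2e-13). Rec8, a meiotic cohesin, averaged 44.4 ± 17.1 CPM in ATRA and 10.5 ± 2.34 CPM in vehicle libraries (2.08 ± 0.20, adjusted p = 1.3e-09), and Smc1b, its cohesin partner, 66.1 ± 12.3 CPM in ATRA and 17.9 ± 1.5 CPM in vehicle libraries (1.89 ± 0.10, adjusted p = 3.1e-15). In both, library 1 was the lowest of its group. Meioc, which lengthens meiotic prophase, rose by 1.54 ± 0.21. Without the 4 end libraries 4 of the 8 rose, and without ATRA library 5 alone 4 rose. The calls of Stag3, Ythdc2 and Figla did not hold without the 4 end libraries, with adjusted p of 0.0996, 0.0541 and 0.0855. Stag3 was not called in 12 and Figla in 13 of 23 other settings.

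Of 24 meiotic prophase genes, 13 rose and 0 fell (median log2 fold change 0.44). Hormad1, which marks unsynapsed chromosome axes, averaged 22.1 ± 2.8 CPM in ATRA and 9.23 ± 3.14 CPM in vehicle libraries (log2 fold change 1.26 ± 0.19, adjusted p = 5.8e-06). Dmc1, the meiotic recombinase, rose by 0.78 ± 0.10 and Tex11, a recombination factor, by 0.97 ± 0.15. The axis gene Sycp3 did not pass the test, at 13.1 ± 1.72 CPM in ATRA and 12 ± 2.91 CPM in vehicle libraries (0.12 ± 0.18, adjusted p = 0.74). Over the whole list, summed CPM was 437 to 589 in ATRA and 283 to 579 in vehicle libraries.

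General germ cell genes rose in 1 of 18 cases and fell in 1, against shares of 9.06% and 9.03% over all genes tested. Summed CPM of that list was 1193 to 1856 in ATRA and 1024 to 2156 in vehicle libraries, and the ranges overlapped. In bulk RNA, fewer cells of a type and less RNA per cell cannot be told apart. The riser was Kit, the stem cell factor receptor, at 95 to 108 CPM in ATRA and 53.6 to 71.3 CPM in vehicle libraries (0.67 ± 0.07, adjusted p = 6.1e-09). The gene that fell was Dppa4 (-0.61 ± 0.18), a call lost without ATRA library 3 (adjusted p = 0.0727), without the 4 end libraries (adjusted p = 0.0702) and against all 15 vehicle libraries (adjusted p = 0.152). Dazl did not pass (adjusted p = 0.11), but was called as a rise in 4 of 23 other settings. Of 16 male germ cell differentiation genes, 3 rose and 4 fell. Nanos2, which represses meiosis in male germ cells, stood at 0.779, 2.14, 2.44, 1.74 and 1.16 CPM in ATRA libraries 1 to 5, against 1.48, 6.3 and 8.84 CPM (lowest, median and highest) in vehicle libraries. Only vehicle library 7, at 1.48 CPM, fell inside the ATRA range. The log2 fold change was -1.86 ± 0.44 (adjusted p = 0.0025). Tdrd5, of the piRNA pathway, fell by 0.83 on the log2 scale (SE 0.16), and Lefty1, of the Nodal pathway, rose by 1.83 ± 0.32. ATRA library 3 was the highest for Lefty1, at 30.3 CPM, and library 1 the lowest, at 7.38 CPM. Dnmt3l, which sets male germ cell methylation, stood at 85.9 CPM in ATRA library 1 and 7.4 CPM in library 3, against 6.66 to 112 CPM in vehicle libraries, and did not pass the test (adjusted p = 0.90). Of 12 pluripotency genes, 0 rose and 1 fell (Tfcp2l1, -0.84 ± 0.21).

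**Figure D3:**
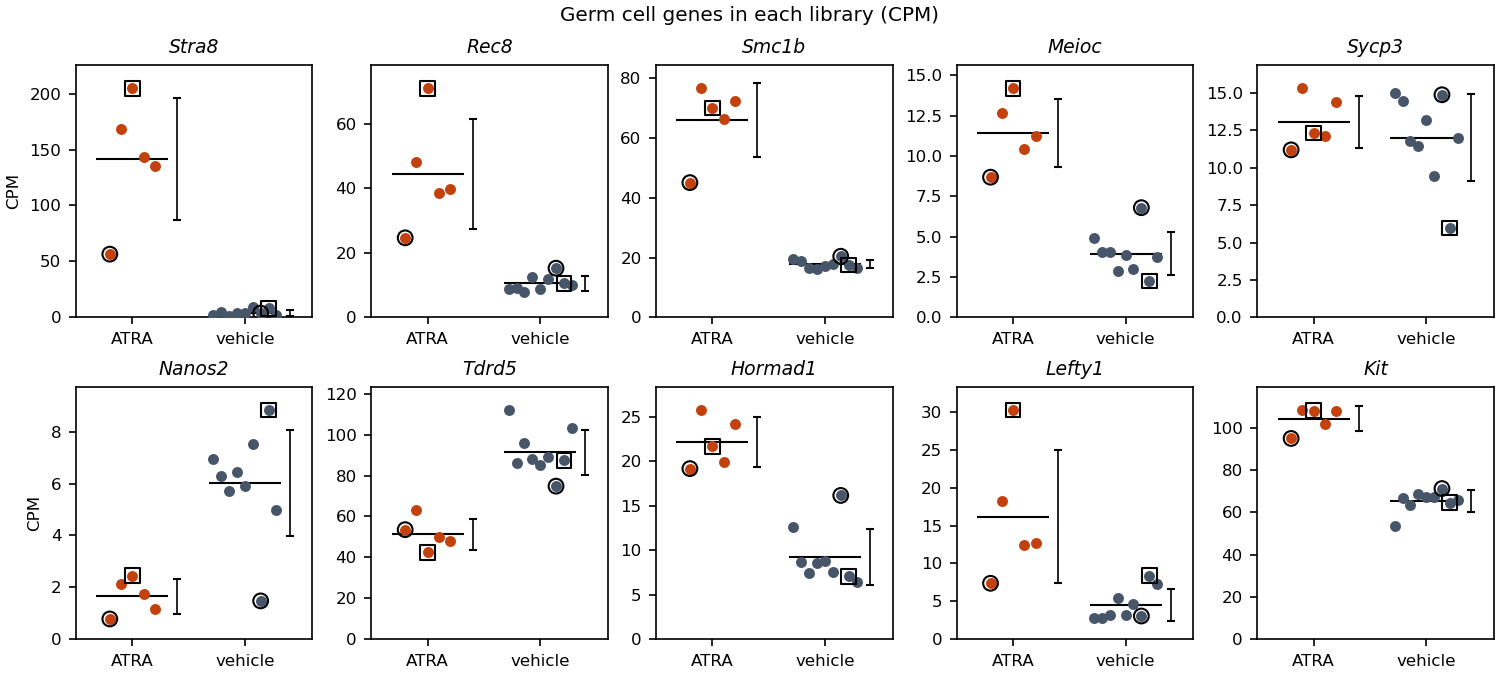
Each panel is 1 germ cell gene, the y axis is CPM, each point is 1 library, lines are means and bars SD (n = 5 ATRA, n = 9 vehicle), and circles and squares mark the end libraries as in the panels of retinoid genes. Stra8, Rec8, Smc1b, Meioc and Kit are higher in every ATRA library, Tdrd5 is lower in every one, and Sycp3 overlaps.

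In the Sertoli lineage more genes of the transcription factor list rose than fell, and the products split. Of 14 genes of the transcription factor list, 7 rose and 1 fell. That list also holds the ligand gene Dhh and the enzyme gene Ptgds, which are counted among the products too. Dhh was among the rises (adjusted p = 0.0050), but was not called against all 15 vehicle libraries (adjusted p = 0.0902). Nr0b1, an orphan nuclear receptor, averaged 49.2 ± 4.14 CPM in ATRA and 10.5 ± 1.73 CPM in vehicle libraries (log2 fold change 2.23 ± 0.12, adjusted p = 3.7e-15). Sox9, the Sertoli factor switched on by SRY, stood at 92.3 to 119 CPM in ATRA and 37.1 to 82.7 CPM in vehicle libraries (0.81 ± 0.14, adjusted p = 5.1e-05). Wt1 (0.63 ± 0.08) and Dmrt1 (0.61 ± 0.09) also rose. Dmrt1 is made in germ cells as well as Sertoli cells. Of 28 Sertoli products, 8 rose and 10 fell. Cldn11, of the tight junctions between Sertoli cells, averaged 86.9 ± 11.3 CPM in ATRA and 27.5 ± 7.88 CPM in vehicle libraries (1.66 ± 0.16, adjusted p = 3e-09), while Hsd17b1, a steroid dehydrogenase of fetal Sertoli cells, stood at 21.4, 16.2, 11.9, 16.1 and 17.9 CPM in ATRA libraries 1 to 5, against 51.5, 69.5 and 85.8 CPM (lowest, median and highest) in vehicle libraries (-2.04 ± 0.15, adjusted p = 1.4e-11). Its relative Hsd17b3 fell by 0.66 on the log2 scale (SE 0.08). Amh, the hormone that removes Müllerian ducts, averaged 671 ± 105 CPM in ATRA and 1024 ± 176 CPM in vehicle libraries (-0.61 ± 0.14, adjusted p = 0.0022), but without the 4 end libraries it did not pass (adjusted p = 0.055).

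Ovarian somatic genes rose in 5 of 19 cases and fell in 2. Foxl2, the granulosa transcription factor, stood at 13.7, 12.9, 11.5, 11.7 and 11.8 CPM in ATRA libraries 1 to 5, against 1.72, 2.56 and 3.46 CPM (lowest, median and highest) in vehicle libraries (2.23 ± 0.21, adjusted p = 1.9e-09). Wnt4, a signal of the ovarian pathway that is also made in stroma, averaged 198 ± 14.9 CPM in ATRA and 72 ± 6.8 CPM in vehicle libraries (1.46 ± 0.08, adjusted p = 3.2e-15). The granulosa gene Fst did not pass, at 1.89 ± 0.93 CPM in ATRA and 2.42 ± 0.89 CPM in vehicle libraries (adjusted p = 0.48), nor did Rspo1 (-0.46 ± 0.21, adjusted p = 0.14), which was called as a fall in a fit of the 14 libraries alone (adjusted p = 0.0131).

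Interstitial progenitor genes fell more often than they rose. Of 21 interstitial progenitor genes, 2 rose and 11 fell (median log2 fold change -0.25), and 7 fell without the 4 end libraries or without ATRA library 3 alone. Col3a1, a fibrillar collagen, stood at 1668 to 2252 CPM in ATRA and 2721 to 3205 CPM in vehicle libraries (-0.54 ± 0.06, adjusted p = 3.3e-08). Pdgfra, the receptor of the progenitors (-0.49 ± 0.06), and Lhx9 (-0.66 ± 0.08) also fell, while Dcn, a matrix proteoglycan, rose by 1.04 ± 0.12. Of 42 collagen and matrix genes, 7 rose and 19 fell (12 without the 4 end libraries). Within this list Ecm1, a secreted matrix protein, was the largest rise, at 160, 148, 216, 190 and 176 CPM in ATRA libraries 1 to 5, against 15.9, 18.2 and 19.9 CPM (lowest, median and highest) in vehicle libraries (3.31 ± 0.09, adjusted p = 2.6e-22). Of 13 peritubular genes, 1 rose and 4 fell, with Tagln at -0.99 ± 0.22, and Acta2 did not pass (0.17 ± 0.09, adjusted p = 0.21). The Leydig list held 5 rises and 4 falls among 21, against 9.06% and 9.03% over all genes tested. Star was among the rises (adjusted p = 0.043), but was not called in 13 of 23 other settings. Without the 4 end libraries its adjusted p was 0.2295. Cyp11b1 (1.34 ± 0.20) and the electron donor Por (0.68 ± 0.06) rose, Dlk1 fell (-0.80 ± 0.12), and Cyp17a1 did not pass (0.18 ± 0.20, adjusted p = 0.64).

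Markers of other cell types that the cultures could hold gave 0 to 4 calls a list, to be read against the 18.1% called over all genes. Of 14 macrophage genes 0 were called, with a summed level of 74.4 to 129 CPM in ATRA and 67.7 to 131 CPM in vehicle libraries. Of 15 endothelial genes 2 rose, Pecam1 (0.49 ± 0.12) and Erg (0.48 ± 0.13), while Cdh5 and Kdr did not pass. Of 13 erythroid genes 2 rose, Tfrc (0.60 ± 0.09) and Klf1 (0.68 ± 0.24); Klf1 was not called in 12 of 23 other settings. Of 12 mesonephros genes 3 rose, Pax2 and Epcam among them, and 1 fell (Krt8). Pax2 averaged 4.85 ± 0.833 CPM in ATRA and 0.808 ± 0.317 CPM in vehicle libraries (2.57 ± 0.24), while Pax8, Lhx1 and Cdh16 of the same tissue did not pass and the summed level overlapped, at 122 to 157 CPM in ATRA and 117 to 156 CPM in vehicle libraries. The part of these cells in the results above was not tested.

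Genes of body patterning rose, with most calls among the anterior ones. Of 22 anterior Hox, Cdx and cofactor genes, 14 rose and 1 fell, the fall being the cofactor Pbx3 (-0.96 ± 0.07). By paralog group, 11 of 15 tested Hox genes of groups 1 to 5 rose and 0 fell, with a median of 0.87, against 7 of 16 in groups 6 to 13, where 1 fell (Hoxd9, named after its value was seen), with a median of 0.38. By cluster, 5 of 9 Hoxa, 8 of 9 Hoxb, 5 of 6 Hoxc and 0 of 7 Hoxd genes rose. Hoxb1, a marker of the hindbrain, stood at 1.35, 2.71, 2.7, 1.49 and 2 CPM in ATRA libraries 1 to 5, against 0, 0.105 and 0.369 CPM (lowest, median and highest) in vehicle libraries (4.01 ± 0.38). Hoxb4 averaged 11.7 ± 2.38 CPM in ATRA and 2.54 ± 0.759 CPM in vehicle libraries (adjusted p = 1.5e-10), and Cdx1, an upstream regulator of Hox genes, 5.69 ± 1.99 CPM in ATRA and 0.383 ± 0.166 CPM in vehicle libraries (3.90 ± 0.31, adjusted p = 3.4e-11). These 3 genes were under 5 CPM in every vehicle library.

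**Figure D4:**
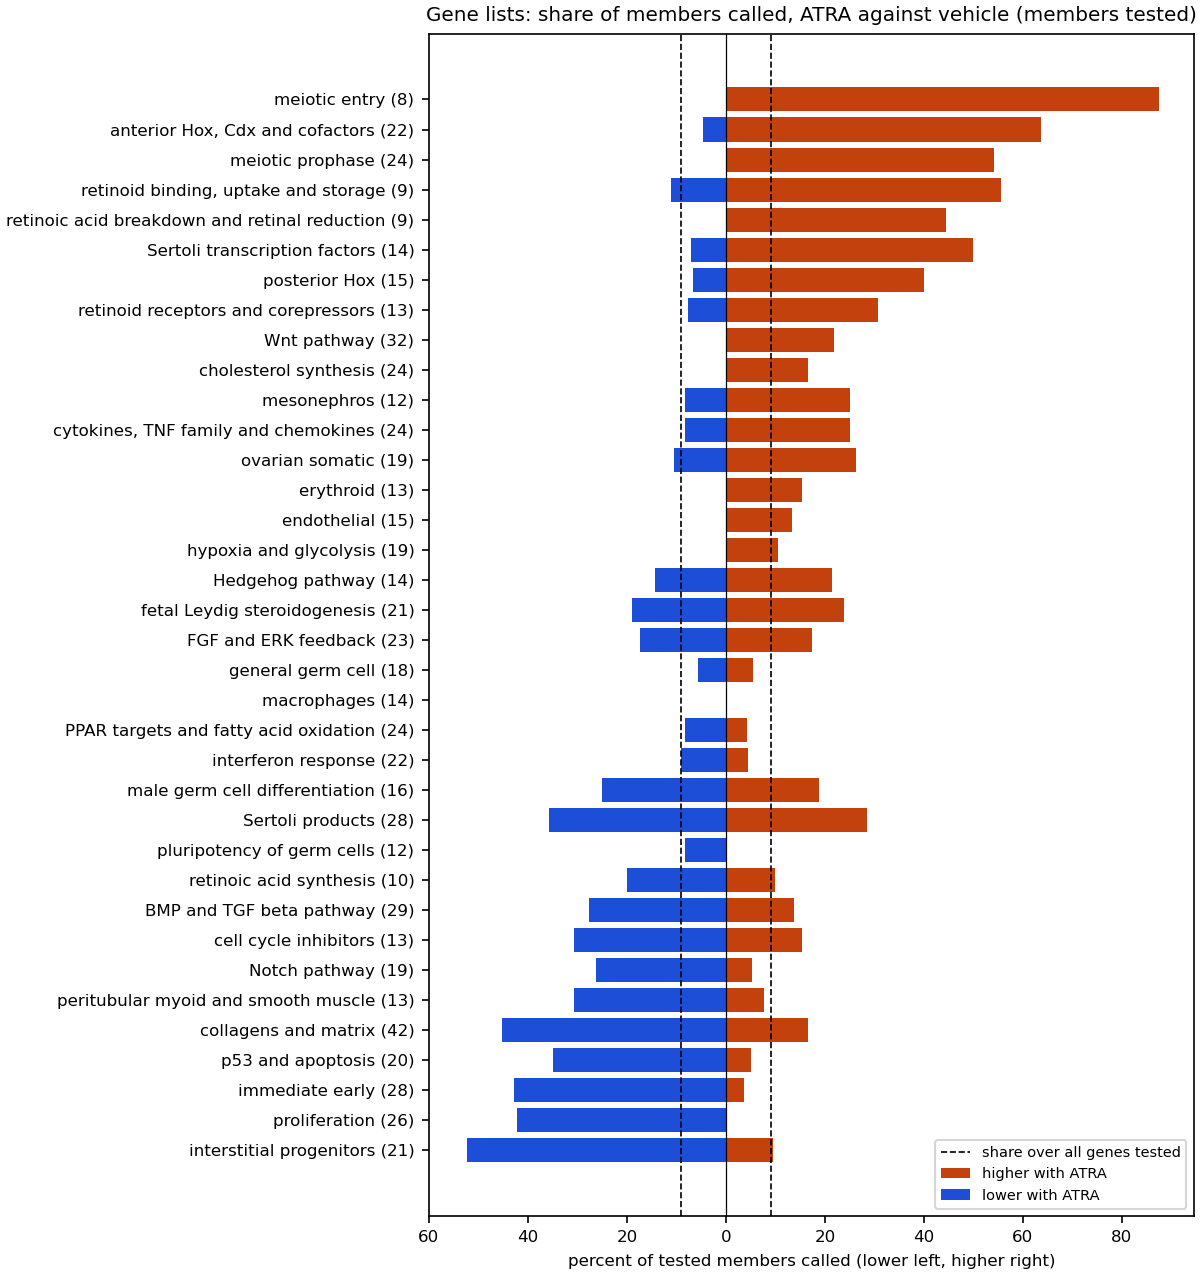
Each bar is 1 gene list, with the number of members tested in brackets. Bars to the right are the percent of members that rose and bars to the left the percent that fell. Dashed lines are the shares over all genes tested, 9.06% and 9.03%. Meiotic entry has 7 of 8 genes rising, and interstitial progenitors have 11 of 21 falling.

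Of the 12 largest rises by fold, Tnfsf13b, a cytokine of the TNF family, stood at 15, 11.8, 15.1, 12.9 and 13.3 CPM in ATRA libraries 1 to 5, against 0.178, 0.505 and 0.791 CPM (lowest, median and highest) in vehicle libraries (4.73 ± 0.18, adjusted p = 2.6e-18). Lpar3, a lysophosphatidic acid receptor (4.09 ± 0.20), Il33, an alarmin cytokine (3.81 ± 0.33), and Cebpe, a transcription factor of granulocytes (3.25 ± 0.23), rose without overlap. Lrrc32, which anchors latent TGF beta, was abundant and averaged 178 ± 7.33 CPM in ATRA and 55.1 ± 6.44 CPM in vehicle libraries (1.69 ± 0.08). Among the falls, Miox, the enzyme that opens inositol, stood at 0.308 to 0.916 CPM in ATRA and 2 to 5.72 CPM in vehicle libraries (-2.61 ± 0.29). Asic4, a channel subunit, fell by 2.54 on the log2 scale (SE 0.19). Slc13a2, a dicarboxylate carrier, fell by 2.38, but it overlaps its antisense gene Slc13a2os, which fell by 2.06, and without a stated strand setting reads of the 2 cannot be told apart. Bcan, a proteoglycan, averaged 33.3 ± 4.85 CPM in ATRA and 107 ± 14.3 CPM in vehicle libraries (-1.69 ± 0.14, adjusted p = 6.4e-11).

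Signalling lists varied. Of 26 proliferation genes, 0 rose and 11 fell, with Mki67 at -0.32 ± 0.06 and Aurkb at -0.36 ± 0.06, but 4 fell without the 4 end libraries and 7 without ATRA library 1 alone. Of 28 immediate early genes, 1 rose (Dusp5, 0.70 ± 0.10) and 12 fell. Egr1 averaged 23.3 ± 6.3 CPM in ATRA and 46.7 ± 8.19 CPM in vehicle libraries (adjusted p = 1.8e-05), while Fos did not pass (-0.30 ± 0.20, adjusted p = 0.38). Without ATRA library 1 Fos was called as a fall (log2 fold change -0.62, adjusted p = 0.0181), as it was without the 4 end libraries (-0.75, adjusted p = 0.0235). The Wnt list had 7 rises and 0 falls among 32, with Wnt4, Wnt11 (0.90 ± 0.19) and Wnt9a (0.83 ± 0.14). The BMP and TGF beta list had 4 rises and 8 falls among 29, with Fstl3, an activin antagonist, at 2.27 ± 0.19 and Smad7, a feedback inhibitor, at -0.62 ± 0.09. Of 23 FGF and ERK feedback genes, 4 rose and 4 fell, with Etv4 at 1.45 ± 0.12, and of 19 Notch genes 1 rose and 5 fell, with Hes5 at -1.04 ± 0.18. The Hedgehog list had 3 rises and 2 falls among 14, and the cytokine and chemokine list 6 and 2 among 24.

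The ATRA effect differed from that of MEHP, which was measured against its own 6 vehicle libraries. MEHP changed 912 genes (4.72%). The 2 compounds changed 573 genes in common, which is 16.4% of the ATRA and 62.8% of the MEHP genes, and 557 of these moved in the same direction. The difference between the effects, tested directly, passed in 843 genes (4.36%), of which 416 were more positive with ATRA (2.15%) and 427 more negative (2.21%), and 735 of these were among the ATRA genes. It passed for Ecm1 (difference 3.24 ± 0.14, adjusted p = 2.4e-16), Rarb (3.29 ± 0.26, adjusted p = 5.6e-10) and Stra8 (2.98 ± 0.56, adjusted p = 0.0012). Stra8 rose by 5.03 with ATRA and by 2.05 with MEHP on the log2 scale. It did not pass for Asic4 (0.11 ± 0.26, adjusted p = 0.91), where ATRA gave -2.54 and MEHP -2.66, nor for Miox (-0.32 ± 0.38, adjusted p = 0.80) or Etv4 (-0.11 ± 0.18, adjusted p = 0.86). A difference that does not pass the test does not show that the effects are alike.

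**Figure D5:**
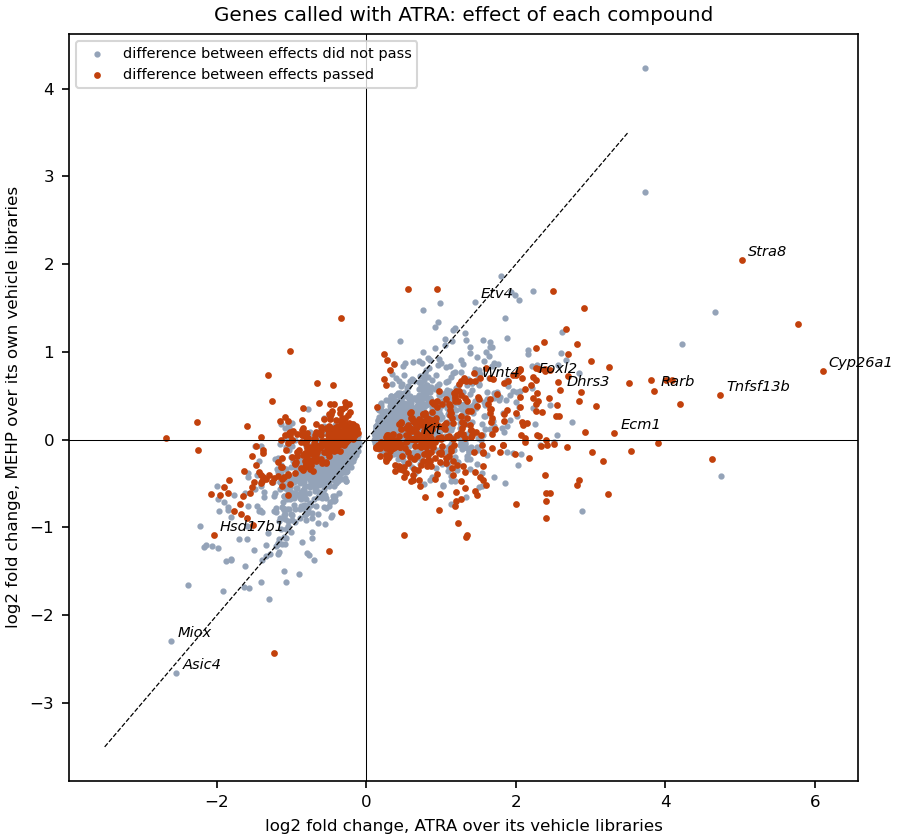
Each point is 1 of the 3494 genes called with ATRA. The x axis is its log2 fold change with ATRA over vehicle and the y axis its log2 fold change with MEHP over its own vehicle libraries. Orange points passed the test of the difference, and the dashed line marks equal effects. Asic4, at -2.54 and -2.66, and Miox, at -2.61 and -2.29, lie near the line, while Ecm1, at 3.31 and 0.08, lies near the x axis.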

How the data were processed

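RNA was measured by poly(A) RNA sequencing in 30 cultures. The authors deposited unnormalised read counts for 49315 Ensembl genes, in featureCounts layout per the file headers. The submitters' processing notes name STAR 2.5.2b, Trimmomatic 0.36, Subread 1.5.2 (featureCounts), bcl2fastq 2.20 and DESeq2. Build, annotation release and strand setting were not given in the sources used here, so overlapping genes on opposite strands, and near-identical copies, cannot be told apart. Of identifiers matched to GENCODE M21 (GRCm38), 91.36% had the same coordinates. Symbols covered 99.3% of identifiers.

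Counts were tested with edgeR 4.0.16 (R 4.3.3) in a quasi-likelihood model of 5 group means over all 30 libraries, with TMM scaling (factors 0.975 to 1.023), filterByExpr (minimum count 10) and 25 residual degrees of freedom. The common coefficient of biological variation came to 12.7%. The F tests were two-sided, with Benjamini-Hochberg adjustment over 19323 genes and a threshold of 0.05. Fold changes are log2, ATRA over vehicle, with SE from the F statistic. CPM is TMM scaled, and TPM uses the exon lengths in the files.

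Replicate numbers follow accession order. No label ties libraries to animals or litters, so each p-value reflects the spread among these libraries alone, which may be technical. No pair of libraries agreed within sampling noise. Members and gene lists were chosen with earlier results of these data known. Named genes are the 12 largest rises and falls whose mean log2 CPM reached 1, the 8 largest rises and falls at 100 CPM or more, up to 4 called members of each list, up to 2 of each symbol family, all listed retinoid and meiotic entry genes, and a fixed panel. Of the panel, Meiosin was not found in the files, and some named genes are not reported here and are left out of the counts of named genes. Alternatives were other scaling, no filter, DESeq2 1.42.0, limma 3.58.1 with voom, blocks, other sets of libraries and each library left out.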

Additional observations from a re-analysis of the deposited data

Results flagged for a closer look

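Of 424 combinations of a named gene and a group, 34 had 1 library far from the others by Dixon's test at 95%, which chance alone gives in about 1 of 20 groups. Values are CPM, with the range of the other libraries of the group.

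ATRA library 1 stood apart in 5 genes. It was low for Cyp26a1 (5.58, others 17.2 to 25.7), Smc1b (45.1, others 66.3 to 76.7) and Rhox6 (0.492, others 1.23 to 1.42), and high for Aldh1a1 (915, others 700 to 741) and Il9r (1.68, others 0.41 to 0.654). ATRA library 3 was low for Col3a1 (1668, others 2066 to 2252), Crabp1 (9.8, others 12.8 to 14), Dppa4 (70.8, others 99.4 to 112) and Rad21l (2.15, others 4.18 to 4.82), and high for Hoxb9 (29.8, others 21.1 to 22.6). In the other ATRA libraries, library 5 stood apart for Aard (380, others 455 to 471) and Pcdh8 (2.69, others 2 to 2.15), library 2 for Rbl2 (40.3, others 42.8 to 43.8) and Wnt11 (12.1, others 18 to 21.1), and library 4 for Rxra (128, others 120 to 123).

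Vehicle library 7 was low for Nanos2 (1.48, others 4.99 to 8.84), Tfcp2l1 (20.7, others 35.2 to 44.5), Bnc2 (62.9, others 101 to 124), Robo2 (140, others 168 to 195), Ncoa3 (64.2, others 73.1 to 82.6) and Rxrb (72.9, others 90.2 to 101), and high for Rbp4 (4.11, others 1.11 to 2.13) and Slc44a1 (91, others 78.4 to 84.5). Vehicle library 1 was low for Kit (53.6, others 63.3 to 71.3), Asic4 (6.31, others 9.91 to 14.8), Ccnd2 (251, others 299 to 348), Gdf15 (11.9, others 14.9 to 18.1) and Ier2 (46.1, others 58.4 to 63.1), and high for Crabp2 (10.5, others 6.43 to 8.03) and Tex11 (11.3, others 6.45 to 8.38). Vehicle library 8 was low for Clic6 (0.589, others 1.02 to 1.64) and Rad21l (2.29, others 3.64 to 5.58). Vehicle library 5 was low for Idi1 (21.5, others 24.5 to 27.1) and high for Rhox9 (0.757, others 0.217 to 0.444).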

How the results depend on the processing

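The number of genes called ranged from 2462 to 4168 across the settings other than limma-voom with sample weights, which called 5527 genes (2847 up and 2680 down, and 1468 for the difference from MEHP). Leaving out each library in turn gave 2914 to 3640 calls. Other settings gave 3029 without the filter, 3509 with other scaling, 3683 with DESeq2, 4147 from the 14 libraries alone and 3842 against all 15 vehicle libraries. Without the 4 end libraries, chosen after seeing the data, 2462 were called, 2383 of them shared. No called named gene changed sign. Of 176 named genes that were called, 154 kept their call in every setting, and 18 lost it without the 4 end libraries. Of those 18, the ones not given elsewhere were Birc5 (adjusted p = 0.0527), Cdkn1a (0.0621), Gli1 (0.1597) and Hoxb6 (0.2007). The rest were Hoxb9 (0.1044) and Isg15 (0.186).

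First title numbers could pair ATRA with vehicle libraries. The numbers were taken to pair samples only if every pair correlated over 0.1. Of 9 same-number pairs 7 did, and the lowest was -0.156, so they were not. The highest same-number correlation was 0.686, for ATRA library 3 and vehicle library 8. The highest of a different-number pair was 0.385, for ATRA library 3 and vehicle library 6. The rule asks every pair to pass, so failing it does not show that libraries of the same number are unrelated. Whether they share a source was not tested. Of 5 ATRA libraries, 3 correlated best with a vehicle library of their own number, a hint from the data and not from the design. A replicate block on the number gave 3848 calls, 3267 of them shared, and 4168 in the 14 libraries alone, where 3 named genes were newly called: Rxra (adjusted p = 0.0257), Acta2 (0.0449) and Rspo1 (0.0141). With limma-voom, Fos (0.00983), Dazl (0.0202), Rspo1 (0.0479) and Acta2 (0.0288) were newly called. Dazl was also called as a rise in the 14 libraries alone without the block (0.0412), against all 15 vehicle libraries (0.0147) and without ATRA library 1 (0.03555).

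Reversals of the fitted log2 fold change were seen, among the named genes, only for ones that were not called, and their cause was not tested. With the replicate block they were Dnmt3l (0.0283), Nodal (-0.0303), Pou5f1 (-0.0393) and Rad21l (0.0252). In the 14 libraries with the block they were Nodal (-0.0106), Pou5f1 (-0.0181), Rad21l (0.0452) and Rdh13 (0.0080). Against all 15 vehicle libraries it was Rdh14 (-0.0008), and with limma-voom Insl3 (-0.0054). Without the 4 end libraries they were Insl3 (-0.0382), Rad21l (0.0229) and Rxrb (-0.0063). Leaving out single libraries gave ranges of -0.0753 to 0.0040 for Cyp11a1, -0.1907 to 0.0173 for Dhrs9, -0.6325 to 0.1102 for Dnmt3l, -0.0977 to 0.1074 for Insl3, -0.0462 to 0.0064 for Ncoa1, -0.0425 to 0.0067 for Ncor1, -0.2419 to 0.6494 for Nodal, -0.0850 to 0.0655 for Pou5f1, -0.1739 to 0.0727 for Rad21l, -0.0291 to 0.0078 for Rdh13 and -0.0075 to 0.0617 for Rdh14.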

Other observations

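Counts for families set by symbol pattern, and for some further lists, follow. They are to be read against the shares over all genes tested, 9.06% that rose and 9.03% that fell. The solute carrier, Zfp, interferon, PPAR and hypoxia counts lay near or under those shares. Of 25 serpin genes tested, 1 rose and 14 fell (9 without the 4 end libraries or without ATRA library 2), the median of their log2 fold changes being -0.37. Serpina5 averaged 14.4 ± 1.44 CPM in ATRA and 41.4 ± 5.43 CPM in vehicle libraries (-1.53 ± 0.17, adjusted p = 2.3e-08), and Serpina3a 5.27 ± 1.23 CPM in ATRA and 17 ± 1.8 CPM in vehicle libraries (-1.68 ± 0.15). Of 73 potassium channel genes, 5 rose and 18 fell. Kcnk5 rose by 0.59 ± 0.08 and Kcnc2 fell by 1.39 on the log2 scale (SE 0.15). Of 77 axon guidance ligand and receptor genes, 8 rose and 19 fell, with Robo2, a receptor for Slit, at 93.7 ± 8.55 CPM in ATRA and 178 ± 17.5 CPM in vehicle libraries (-0.92 ± 0.09), and Sema3g, a secreted semaphorin, at -1.15 ± 0.12. Of 15 Rhox homeobox genes, 10 rose and 1 fell (6 rose without ATRA library 3), but some members of this family are near-identical copies whose reads the counting could have split.

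Of 85 ribosomal protein genes 1 rose (Rpl3l, 1.13 ± 0.35), a call lost without the 4 end libraries (adjusted p = 0.0814), without ATRA library 1 (adjusted p = 0.0666) and without ATRA library 5 (adjusted p = 0.0527). Of 305 solute carrier genes 34 rose and 35 fell. Of 355 zinc finger genes with Zfp symbols, 22 rose and 19 fell, with Zfp57, which guards imprints, at -0.40 ± 0.07. Of 22 interferon response genes 1 rose (Gbp2, 0.85 ± 0.17) and 2 fell, of 24 PPAR target genes 1 rose (Acot1, 0.34 ± 0.08) and 2 fell, of 19 hypoxia genes 2 rose (Pfkl and Adm), and of 24 cholesterol synthesis genes 4 rose (among them Idi1, Mvd and Sc5d), 9 in a fit of the 14 libraries alone and 2 without ATRA library 2. Without the 4 end libraries 2 rose, and Mvd (adjusted p = 0.0628) and Sc5d (adjusted p = 0.153) were not called. Of 20 p53 and apoptosis genes, 1 rose (Bik, 0.95 ± 0.14) and 7 fell, 4 without the 4 end libraries.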
